A study of Homo sapiens with 12 samples.

Results

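The genes described here are 42 rows of a count table, selected by name as integrin subunits, laminin chains, collagens and matrix proteins, out of 54261 gene symbols in all. They are 12 integrin alpha subunits, 8 integrin beta subunits, 8 laminin chains, 9 collagen chains and 5 other matrix proteins (FN1, FBN1, SPARC, HSPG2 and AGRN). RNA sequencing counted them in 4 groups of 3 libraries. These were SW480 cells with lactate, SW480 cells without lactate (control), DLD1 cells with lactate and DLD1 cells without lactate (control). SW480 and DLD1 are established human colorectal cancer lines. The sources used here give no dose, duration or vehicle for the lactate. They call the 3 libraries of a group biological replicates without saying whether the cultures were separate, so the p-values measure the spread between these libraries, which may be partly technical.

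Integrins are receptors made of 1 alpha and 1 beta subunit that span the cell membrane and tie the matrix outside the cell to the cytoskeleton inside it. The alpha subunit largely sets which matrix protein is bound: ITGA5 with ITGB1 forms the classical fibronectin receptor, ITGA1, ITGA2, ITGA10 and ITGA11 with ITGB1 bind collagens, and ITGA3 and ITGA6 serve laminin receptors. Laminins are trimers of an alpha, a beta and a gamma chain that, with type IV collagen and the proteoglycans perlecan (HSPG2) and agrin (AGRN), build the basement membrane under the colonic epithelium. ITGA6 with ITGB4 and the transmembrane collagen COL17A1 form hemidesmosomes, which anchor epithelial cells to a laminin that contains the chains LAMA3 and LAMB3. Fibrillar collagens such as COL1A1, fibronectin (FN1) and fibrillin (FBN1) belong to the interstitial matrix, most of which is made by fibroblasts in the intestine.

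The libraries held 12302311 to 22662063 counts. In DLD1 control library 2 and DLD1 control library 3, the log2 level of a gene differed from the mean of the other libraries of the group with a standard deviation (SD) of 0.537 and 0.443 across 12038 genes, against at most 0.261 in the other libraries. These deviations followed the GC content of the transcript in opposite directions (Spearman's rho -0.79 in DLD1 control 2 and 0.82 in DLD1 control 3, across genes, which are not independent). For the smaller deviations of SW480 lactate 1, 2 and 3, rho was 0.5, 0.35 and -0.61. In DLD1 lactate 1, 2 and 3 it was 0.16, -0.51 and 0.46, in DLD1 control 1 0.3, and in SW480 controls -0.1 to 0.11. Of 10 colorectal epithelial markers, 9 reached a mean of 1 CPM in DLD1 (CPM are counts scaled to a common library total) and 4 did in the libraries labelled SW480. There KRT8 and KRT18 were abundant, but EPCAM averaged 0.638 CPM with lactate and 0.988 CPM in controls, CDX2 0.0699 and 0.127 CPM, and KRT20 had no count. The summed epithelial markers ran from 1418 to 1753 CPM in SW480 with lactate and from 1997 to 2349 CPM in SW480 controls. Of 9 fibroblast markers, 5 reached a mean of 1 CPM in each SW480 group. COL3A1 (132 CPM with lactate, 146 CPM in controls) and DCN (68.2 and 83.2 CPM) were the most abundant there. COL1A2, THY1, FAP and POSTN stayed below 1 CPM in both groups. In bulk RNA, fewer cells of a type and less RNA per cell cannot be told apart. The low epithelial markers go against the label of a colorectal epithelial line, the identity of the line is in doubt and was not tested, and this bears on every comparison between the lines. Below, SW480 means the libraries labelled so.

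Of the 42 genes, 39 had enough counts to be tested among 17572 genes. ITGA4, a partner of ITGB1 and ITGB7 in leukocytes, had 4, 9 and 7 counts in SW480 with lactate and 1, 4 and 0 counts in SW480 controls, and no count in any DLD1 library. The collagen receptor subunit ITGA11 had at most 14 counts in a library, and LAMA4, a laminin chain of blood vessels and muscle, at most 13. No comparison is made for these 3 genes. A count of 0 allows a level of up to 0.129 to 0.250 CPM, depending on the library (3 counts of its scaled total, for counting error only).

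In SW480 cells, 10 members changed with lactate. The mRNAs of the fibronectin receptor subunit ITGA5, of ITGB3, of the collagens COL1A1 and COL17A1, of the laminin chains LAMA3, LAMB1 and LAMC1, of ITGA10 and of FBN1 rose with lactate, and that of ITGAE fell. A gene is called changed where edgeR's quasi-likelihood test gave a Benjamini-Hochberg adjusted p under 0.05 over all tested genes. By that rule 9 members rose and 1 fell of 39, which is 25.6%, while 12.4% of all tested genes were called (6.83% higher and 5.59% lower). The members were chosen with earlier results of these data known, so such shares, here and below, are no independent test. The median log2 fold change was 0.30 over the members and -0.01 over all genes. An unadjusted p under 0.05 was reached by 17 members. The share of all tested genes at that level was not counted, here or for any later comparison. In 19 members (48.7%) every SW480 lactate library lay above every SW480 control, against 20.6% of all tested genes, and in 1 (2.56%) below, against 20.4% of all genes. All groups share 1 estimate of the spread, and the count of 10 was 18 without DLD1 control 2, with 24.7% of all genes called, and 16 without DLD1 control 3, with 17.6% of all genes called.

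ITGA5 had the highest level per kilobase of the listed alpha subunits in SW480 with lactate (GRCh38, chromosome 12, 54395261 to 54419460, minus strand). Its level was 812, 775 and 677 CPM in the 3 lactate libraries, against 242, 341 and 304 CPM in the 3 SW480 controls. Every lactate library lay well above every control. The difference was 2.55-fold, a log2 fold change of 1.35 ± 0.15 (standard error, SE; adjusted p = 1.19e-04). ITGA10, a collagen-binding alpha subunit, had 20.7, 25.6 and 16.9 CPM in SW480 with lactate and 9.27, 13.0 and 11.6 CPM in SW480 controls. The groups did not overlap, although the lactate libraries spread widely (log2 fold change 0.91 ± 0.18, adjusted p = 0.00579). ITGB3, which pairs with ITGAV in a receptor of vitronectin and fibronectin, was scarce but had the largest fold change of the called members (GRCh38, chromosome 17, 47253846 to 47311816, plus strand). It had 7.88, 7.87 and 6.42 CPM in SW480 with lactate, against 1.84, 2.67 and 1.54 CPM in SW480 controls (3.71-fold, log2 1.89 ± 0.35, adjusted p = 0.00333).

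ITGAE, the alpha subunit that pairs with ITGB7 and binds E-cadherin, was the member that fell. It had 19.8, 20.7 and 20.3 CPM in SW480 with lactate, against 31.9, 27.4 and 33.6 CPM in SW480 controls, so all lactate libraries lay below all controls (log2 fold change -0.61 ± 0.13, adjusted p = 0.00833). The gene lies on chromosome 17 (GRCh38, 3714628 to 3801243, minus strand) and overlaps HASPIN, listed in the table under its older name GSG2, on the plus strand. GSG2 averaged 9.61 ± 1.24 CPM in SW480 with lactate and 13.0 ± 1.15 CPM in SW480 controls (SD, n = 3 each) and also fell (log2 -0.44, adjusted p = 0.0413). Whether reads were counted by strand is not given in the sources used here, and the part of GSG2 reads in the ITGAE count was not tested. In all, 28 of the 42 members have an annotated gene overlapping them on the other strand.

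The other 14 tested integrin subunits were not called in SW480. ITGB1, the common beta subunit and the partner of ITGA5, had 597, 645 and 668 CPM in SW480 with lactate and 637, 632 and 666 CPM in SW480 controls. These values overlapped throughout (log2 -0.02 ± 0.13, adjusted p = 0.955). The hemidesmosome pair ITGA6 and ITGB4 lay higher with lactate in every library without passing the threshold. ITGA6 averaged 234 ± 11.6 CPM with lactate and 181 ± 12.4 CPM in controls (adjusted p = 0.0648), and ITGB4 3.74 ± 1.12 and 1.85 ± 0.476 CPM (adjusted p = 0.0582). Under some other settings both were called, as with DESeq2 (adjusted p = 0.0387 and 0.00575, with 16.1% of all genes called). ITGA9, with at most 5 counts in any SW480 library of either group, and ITGB7, with at most 6, were too scarce there for a fold change. So was the leukocyte subunit ITGB2, with at most 0.360 CPM. Log2 differences of the other subunits not called ran from -0.18 for ITGA1 to 0.31 for ITGA3. The 6 leukocyte markers summed to 88.4 to 112 CPM in SW480 with lactate and 33.6 to 53.8 CPM in SW480 controls. Nearly all of this was CD68 (means 99.5 and 40.6 CPM), a lysosomal protein abundant in macrophages, while PTPRC, the pan-leukocyte marker, averaged 0.163 and 0.0812 CPM. The part of such cells in the SW480 results was not tested.

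All 7 tested laminin chains had a positive log2 difference in SW480, between 0.15 and 0.68, and 3 of them were called. LAMC1, the gamma chain of most laminins, had 810.1, 802 and 755 CPM in SW480 with lactate and 553, 559.9 and 599 CPM in SW480 controls. The groups were far apart for so small a fold (1.38-fold, log2 0.47 ± 0.08, adjusted p = 0.00287). LAMB1, a beta chain used with LAMC1, had 386, 387 and 335 CPM with lactate and 282, 285 and 306 CPM in controls (log2 0.34 ± 0.09, adjusted p = 0.0206). LAMA3, the alpha chain of the hemidesmosome's laminin, had 8.47, 10.7 and 13.1 CPM with lactate and 6.97, 7.66 and 5.58 CPM in controls. The lowest lactate library was close to the highest control, but the groups did not overlap (log2 0.68 ± 0.17, adjusted p = 0.0161). Its partner LAMB3 averaged 33.4 ± 4.77 CPM with lactate and 23.7 ± 1.27 CPM in controls and was not called (adjusted p = 0.0658). LAMA5, the alpha chain that joins LAMB1 and LAMC1 in the main laminin of adult basement membranes, averaged 599.8 ± 91.9 CPM with lactate and 487 ± 47.4 CPM in controls, with overlap between the groups (log2 0.30 ± 0.21, adjusted p = 0.374).

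Leaving out single libraries ended the calls of LAMA3, LAMB1 and FBN1. LAMA3 had an adjusted p of up to 0.0821 without SW480 lactate 2, SW480 lactate 3, SW480 control 1 or SW480 control 3. LAMB1 had one of up to 0.108 without SW480 lactate 1, SW480 lactate 2, SW480 control 1 or SW480 control 2. With no filter on low counts, the adjusted p was 0.0540 for LAMB1 and 0.0567 for FBN1. The other 7 called members stayed under the threshold without any 1 of the 12 libraries.

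Among the collagens, 2 of 9 were called in SW480. COL1A1, the main chain of type I collagen (GRCh38, chromosome 17, 50183289 to 50201632, minus strand), had 51.3, 52.0 and 49.0 CPM in SW480 with lactate and 19.5, 21.7 and 23.5 CPM in SW480 controls. The lactate libraries were tightly grouped and 2.35-fold higher (log2 1.23 ± 0.12, adjusted p = 6.52e-05). COL1A2, the other chain of type I collagen, averaged 0.765 CPM with lactate and 0.953 CPM in controls. The summed markers of fibroblasts, 9 genes that do not include COL1A1, ran from 201 to 222 CPM with lactate and from 234 to 251 CPM in controls, with 5 of the 9 at 1 CPM or more in each group. THY1, a surface marker of fibroblasts, averaged 0.0620 CPM with lactate and 0.0657 CPM in controls, and the part of such cells in the COL1A1 count was not tested. COL17A1 had 2.56, 3.39 and 3.24 CPM in SW480 with lactate and 1.25, 1.25 and 1.48 CPM in SW480 controls. All lactate libraries of this hemidesmosome collagen lay above all controls (2.29-fold, log2 1.20 ± 0.21, adjusted p = 0.00230).

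The other 7 collagens were not called in SW480, with log2 differences from -0.05 to 0.41. The basement membrane chains COL4A1 and COL4A2 averaged 32.5 ± 1.77 and 47.5 ± 4.23 CPM with lactate, against 28.1 ± 2.24 and 35.8 ± 2.88 CPM in controls (adjusted p = 0.229 and 0.0515). Both lay higher in every lactate library than in any control. COL6A1 and COL6A2, chains of the microfibrillar type VI collagen, had log2 differences of 0.31 ± 0.26 and 0.27 ± 0.22. COL12A1, a collagen that decorates fibrils, had the highest level per kilobase of the listed collagens in SW480. It averaged 331 ± 27.4 CPM with lactate and 343 ± 34.4 CPM in controls (adjusted p = 0.839).

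Of the 5 matrix proteins, FBN1 was called. It had 25.9, 22.7 and 25.2 CPM in SW480 with lactate and 17.1, 17.2 and 18.7 CPM in SW480 controls, with no overlap (log2 0.47 ± 0.12, adjusted p = 0.0160). Its adjusted p reached 0.0855 without SW480 lactate 1, SW480 lactate 3, SW480 control 1 or SW480 control 2. Fibronectin, the ligand of ITGA5 with ITGB1, had 10397, 8184 and 6608 CPM with lactate and 5755, 6295 and 7021 CPM in controls. The third lactate library lay below the highest control, and FN1 was not called (log2 0.40 ± 0.14, adjusted p = 0.0745). HSPG2 averaged 32.6 ± 6.17 CPM with lactate and 22.6 ± 3.39 CPM in controls (adjusted p = 0.145), and SPARC and AGRN had log2 differences of -0.13 and -0.03.

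**Figure D1:**
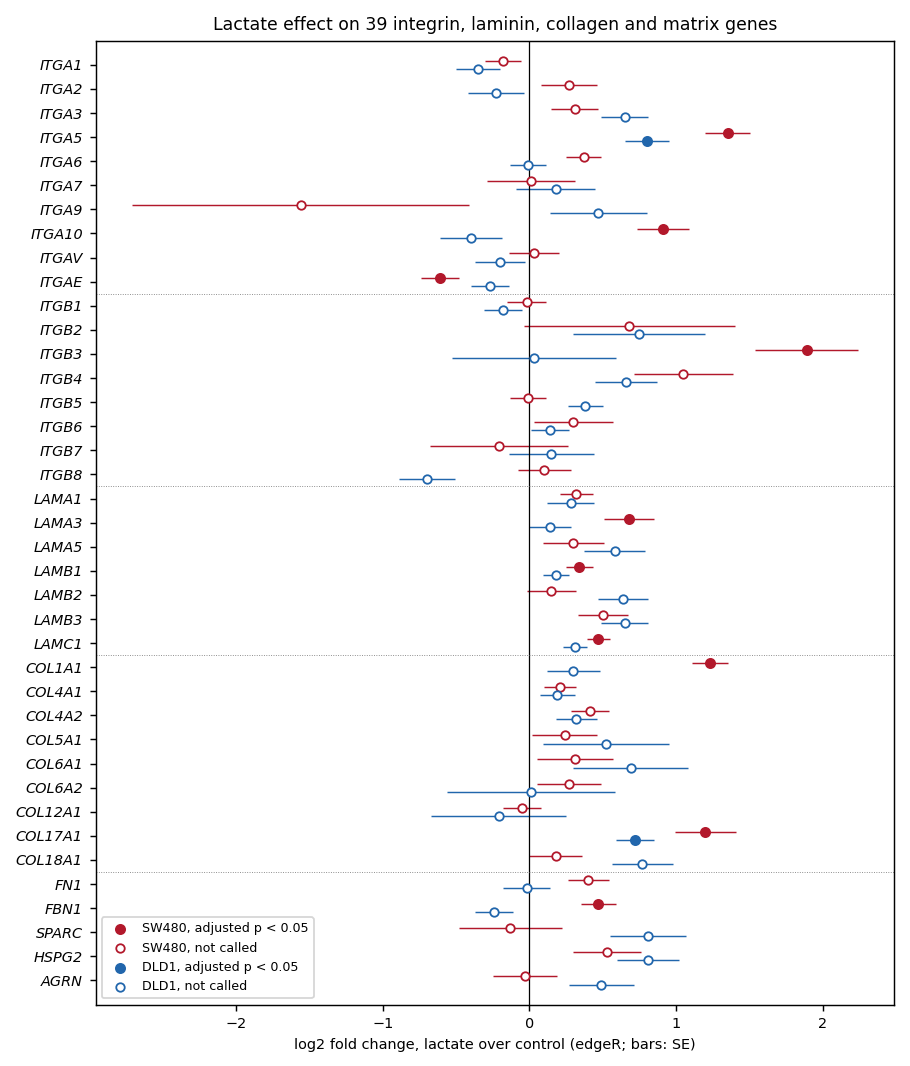
Log2 fold change of lactate over control with its SE for the 39 tested genes, from top to bottom integrin alpha and beta subunits, laminin chains, collagens and matrix proteins (dotted lines between them), in SW480 (red, upper point) and DLD1 (blue, lower point). Filled points are called: 10 in SW480, with ITGB3 at 1.89 and ITGA5 at 1.35, and 2 in DLD1, ITGA5 at 0.80 and COL17A1 at 0.72.

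In DLD1 cells, 2 members passed the same test with lactate. ITGA5 and COL17A1 rose, and none fell. The share called was 2 of 39 members, or 5.13%, against 0.381% of all tested genes (0.336% higher and 0.0455% lower). The median log2 fold change was 0.28 over the members and 0.02 over all genes. An unadjusted p under 0.05 was found for 16 members, again without a count over all genes. All lactate libraries lay above all controls for 13 members (33.3%, against 9.82% of all genes) and below them for 4 members (10.3%, against 9.03%). ITGA5 had 109, 98.4 and 98.0 CPM in DLD1 with lactate, against 57.2, 46.6 and 71.6 CPM in DLD1 controls. The lactate libraries were closely grouped above all controls (1.74-fold, log2 0.80 ± 0.15, adjusted p = 0.0387). COL17A1 had 40.4, 34.3 and 36.3 CPM in DLD1 with lactate, against 23.6, 19.0 and 24.5 CPM in DLD1 controls, also without overlap (1.65-fold, log2 0.72 ± 0.13, adjusted p = 0.0289).

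Both DLD1 calls depended on the libraries in the fit. With the 6 DLD1 libraries fitted alone, the adjusted p was 0.264 for each gene. ITGA5 kept its call without 3 of the 12 libraries (SW480 control 1, DLD1 control 2 and DLD1 control 3), with adjusted p from 0.00271 to 0.241 over the 12 omissions and a log2 fold change from 0.66 to 0.97. COL17A1 kept its call without 5 of the 12, with adjusted p from 0.00511 to 0.212, and lost it without SW480 lactate 2, SW480 lactate 3, SW480 control 2, DLD1 control 1 or any 1 of the DLD1 lactate libraries. Without DLD1 control 2, whose deviation followed GC content, ITGA5 had a log2 fold change of 0.66 (adjusted p = 0.0203) and COL17A1 one of 0.62 (adjusted p = 0.0155).

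**Figure D2:**
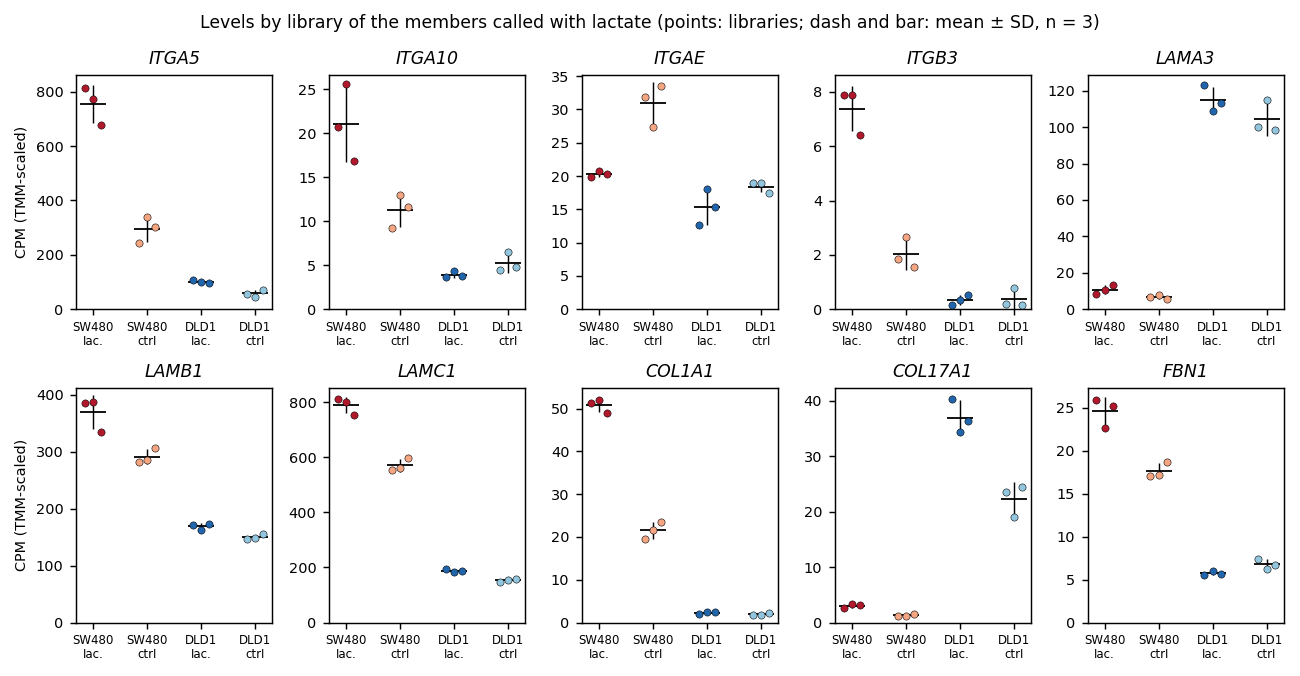
TMM-scaled CPM in each library (points) with mean ± SD over n = 3 libraries, in SW480 with lactate, SW480 controls, DLD1 with lactate and DLD1 controls, for the 10 members called with lactate, each panel with its own axis from 0. In SW480 the lactate points lie above the controls for 9 genes and below them for ITGAE, and in DLD1 they lie above the controls for ITGA5 and COL17A1, among others.

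The DLD1 differences of the members followed GC content. Across the 39 members, Spearman's rho between the log2 fold change and transcript GC content was 0.64 in DLD1 and 0.22 in SW480, and across all genes it was 0.69 and 0.03. The 19 members with at least 55% GC had a median log2 fold change of 0.64 in DLD1, and the 20 members below it one of -0.02. GC-rich genes such as LAMB2 (log2 0.64 ± 0.17, adjusted p = 0.129), ITGA3 (0.65 ± 0.16, adjusted p = 0.0980), LAMB3 (0.65 ± 0.16, adjusted p = 0.101) and HSPG2 (0.81 ± 0.21, adjusted p = 0.123) stood among the larger positive differences, and the GC-poor ITGB8 (-0.70 ± 0.19, adjusted p = 0.124) was the most negative. SPARC stood apart from this, with 0.81 ± 0.26 at 47.3% GC. With a smooth trend along GC content and length removed from each library, rho across the members was 0.27, and 9 members rose and 1 fell in DLD1, with 2.88% of all genes called. Those that rose were ITGA3, ITGA5, ITGB4, ITGB6, LAMB2, LAMB3, LAMC1, COL17A1 and HSPG2, and ITGB8 fell. The log2 fold changes of ITGA5 and COL17A1 were then 0.56 and 0.52.

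The number of members called in DLD1 moved with single libraries. Without DLD1 control 2, 3 members rose (ITGA5, LAMB3 and COL17A1) and 0 fell, with 0.831% of all tested genes called. Without DLD1 control 3, 12 rose and 3 fell, and the share of all genes called went up as well, to 21.8%. Without SW480 lactate 1 or SW480 control 3, 1 was called, with 0.233% and 0.245% of all genes called. Without SW480 lactate 2, SW480 lactate 3, SW480 control 2, DLD1 control 1 or any 1 of the DLD1 lactate libraries, 0 were. The share of all genes called ran from 0.0171% to 0.233% under these omissions. ITGB3, called in SW480, was near the count floor in DLD1 and had 0.174, 0.346 and 0.515 CPM with lactate and 0.195, 0.794 and 0.151 CPM in controls. COL1A1 averaged 2.34 ± 0.365 CPM in DLD1 with lactate and 1.90 ± 0.274 CPM in DLD1 controls (log2 0.30 ± 0.18, adjusted p = 0.360). The fibronectin ligand FN1 had 11.6, 11.3 and 11.6 CPM with lactate and 11.3, 13.1 and 10.7 CPM in controls (log2 -0.02 ± 0.16, adjusted p = 0.966).

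**Figure D3:**
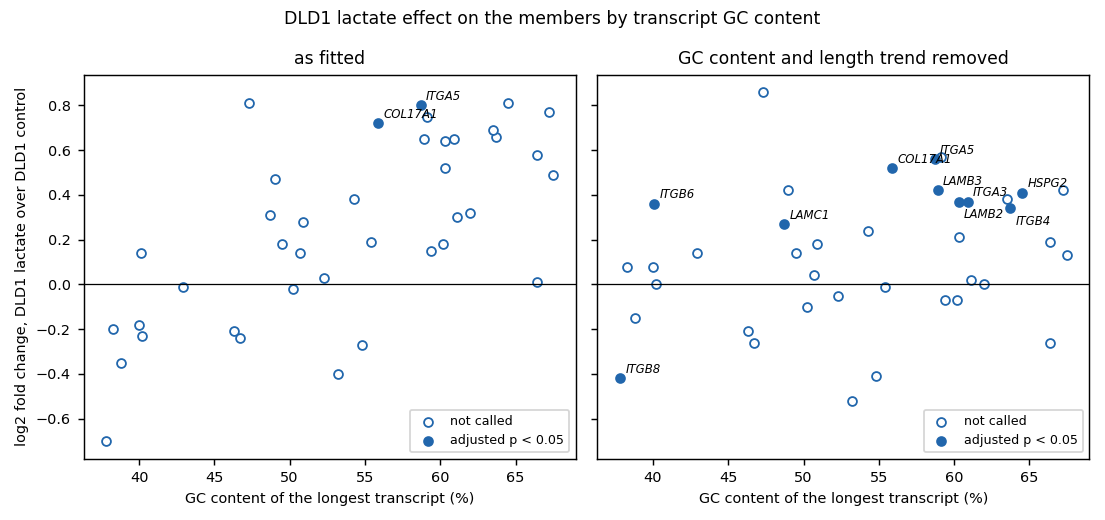
Log2 fold change of DLD1 lactate over DLD1 control against the GC content (percent) of the longest transcript for the 39 tested genes, as fitted (left) and with the trend along GC content and length removed (right). On the left GC-rich genes tend to lie higher, from -0.70 for ITGB8 to 0.81 for HSPG2, with SPARC, also at 0.81, apart from the trend at 47.3% GC, and 2 points are filled (called). On the right the slope is shallower and 10 points are filled.

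The windows around the start sites of 2 genes that rose in both lines are shown because both genes were called in both lines, and that of LAMA3 because it holds the same motif as ITGA5. Sequences are RefSeq's promoter windows on GRCh38.p14, 250 bases before to 50 bases after a start site, written 5′ to 3′ on the gene's strand. RefSeq windows were at hand for 32 of the 42 members. Capitals mark TGANTCA, the letters bound by AP-1 factors, and GGAATG, those bound by TEAD factors, on either strand. ITGA5 lies at chr12:54419217-54419516 on the minus strand, COL17A1 at chr10:104085831-104086130 on the minus strand and LAMA3 at chr18:23872770-23873069 on the plus strand, where the window lies inside the annotated gene.
ITGA5: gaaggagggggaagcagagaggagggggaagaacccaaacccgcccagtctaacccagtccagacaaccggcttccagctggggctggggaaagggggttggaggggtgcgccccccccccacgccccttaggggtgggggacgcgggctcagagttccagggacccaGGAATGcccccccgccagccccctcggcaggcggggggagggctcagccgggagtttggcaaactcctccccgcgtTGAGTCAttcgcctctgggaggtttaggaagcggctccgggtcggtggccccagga
COL17A1: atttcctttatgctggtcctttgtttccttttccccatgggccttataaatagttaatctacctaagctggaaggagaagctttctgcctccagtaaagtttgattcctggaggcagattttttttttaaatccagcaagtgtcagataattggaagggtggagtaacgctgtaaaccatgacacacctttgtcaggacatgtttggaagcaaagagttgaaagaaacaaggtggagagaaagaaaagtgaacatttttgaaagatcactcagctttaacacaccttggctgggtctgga
LAMA3: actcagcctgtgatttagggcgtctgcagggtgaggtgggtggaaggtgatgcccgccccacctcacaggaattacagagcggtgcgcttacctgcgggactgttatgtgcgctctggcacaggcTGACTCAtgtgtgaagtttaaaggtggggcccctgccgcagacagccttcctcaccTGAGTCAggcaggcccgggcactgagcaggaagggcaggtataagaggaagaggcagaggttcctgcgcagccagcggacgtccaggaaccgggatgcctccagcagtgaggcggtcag
In ITGA5, TGAGTCA begins 6 bases and GGAATG 82 bases before the start site of the window. The annotated ITGA5 and COL17A1 genes begin upstream of these start sites, at 54419460 and 104085957 on the minus strand. Both ITGA5 motifs thus lie inside the annotated gene. In LAMA3, an AP-1 motif begins 125 bases and another 69 bases before the start site, and COL17A1 holds neither motif in this window. TGANTCA occurs in 2 of the 32 member windows (6.25%) and in 7.71% of 35116 windows of the same length, and GGAATG in 6 (18.8%) and 14%. Of the other letters searched, TGACGTCA (CRE, either strand) was in 1 member window, that of FN1 (3.12%), and in 1.85% of all. GGGCGG (GC box, either strand) was in 20 (62.5%) and 45%, and TATAAA (gene strand) in 2, COL17A1 and COL6A2 (6.25%), and 7.33%. These matches describe letters, and binding was not measured.

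By their RefSeq start sites, COL4A1 and COL4A2 face away from each other and share the stretch between these sites. It is shown because the pair was measured side by side. The annotated genes overlap, since COL4A2 begins at 110305812 and COL4A1 spans 110148963 to 110307233 on the other strand. The use of strand in counting is not given, and the part of shared reads in the 2 counts was not tested. The 226 bases at chr13:110307108-110307333 on the plus strand hold both start sites, 127 bases apart, and capitals mark the only CCAAT on the plus strand.
COL4A1 and COL4A2: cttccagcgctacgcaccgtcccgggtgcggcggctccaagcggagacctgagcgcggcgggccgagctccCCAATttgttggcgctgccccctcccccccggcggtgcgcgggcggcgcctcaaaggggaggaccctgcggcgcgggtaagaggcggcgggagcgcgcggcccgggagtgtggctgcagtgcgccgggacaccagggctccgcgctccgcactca
Their log2 fold changes with lactate were 0.21 ± 0.11 for COL4A1 and 0.41 ± 0.13 for COL4A2 in SW480, and 0.19 ± 0.12 and 0.32 ± 0.14 in DLD1, with none called.

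The lactate effects differed between the lines for 1 member. Subtracting the SW480 effect from the DLD1 effect gave 1 called member, ITGA10, or 2.56% of members, against 0.728% of all tested genes. ITGA10 had 3.72, 4.30 and 3.77 CPM in DLD1 with lactate and 4.44, 6.48 and 4.78 CPM in DLD1 controls, where the lactate libraries lay below the controls without a call (log2 -0.40 ± 0.21, adjusted p = 0.306). Against the rise in SW480, the difference was -1.31 ± 0.27 on the log2 scale (adjusted p = 0.0443). It held without 5 of the 12 libraries, with adjusted p from 0.0149 to 0.152. It was lost without SW480 lactate 2, SW480 control 1, SW480 control 3, DLD1 control 1 or any 1 of the DLD1 lactate libraries.

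For the other genes called in SW480, the difference between the lines did not pass the threshold. It was -0.93 for COL1A1 (adjusted p = 0.0666), -0.72 for FBN1 (adjusted p = 0.0668), -1.86 ± 0.69 for ITGB3 (adjusted p = 0.202) and -0.56 for ITGA5 (adjusted p = 0.213). COL17A1, called in both lines, had a difference of -0.48 ± 0.25 (adjusted p = 0.342). Without DLD1 control 2, the difference was called for COL1A1 (adjusted p = 0.0243), FBN1 (0.0213) and ITGA5 (0.0294), and 4 members were called in all, with 3.44% of all genes. Without DLD1 control 3, 8 members and 8.63% of all genes were called. Of these 8, 5 had a negative difference, among them COL1A1 (adjusted p = 0.0479), FBN1 (0.0275) and ITGB3 (0.0487), and 3 a positive one, ITGB5 (0.51), LAMB2 (0.70) and AGRN (0.85). The larger number of members called in SW480 is no test of a larger effect there.

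The 2 lines without lactate differed in nearly all members. DLD1 controls had less fibronectin, less of 8 of the 9 collagens and less ITGA5, ITGA1 and ITGA2, and more of the hemidesmosome and epithelial genes ITGB4, ITGB6, COL17A1, LAMA3 and LAMB3. Of 39 members, 13 were higher and 23 lower in DLD1 controls than in SW480 controls, which is 92.3%, while 70.8% of all tested genes were called (33.6% higher and 37.3% lower). ITGA3, ITGA7 and LAMB2 were not called.

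**Figure D4:**
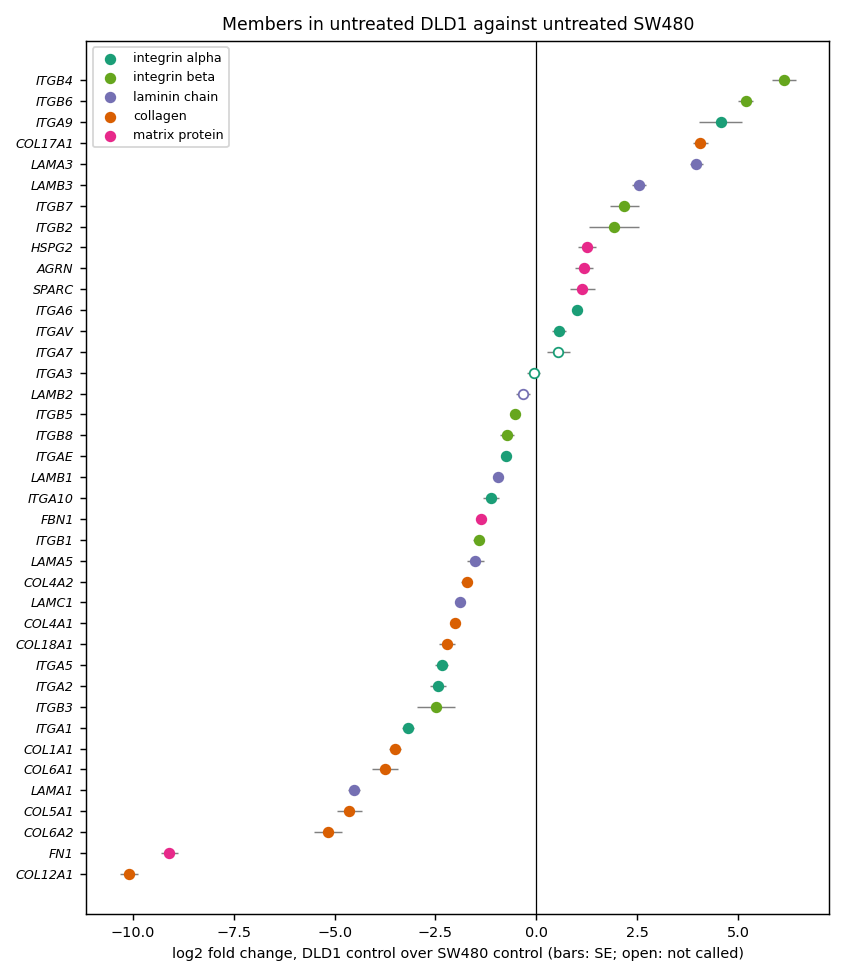
Log2 fold change of DLD1 control over SW480 control with its SE for the 39 tested genes, ordered by value and coloured by role, with open points for genes not called. ITGB4 stands at the top at 6.13, FN1 and COL12A1 at the bottom at -9.09 and -10.09, and the collagens other than COL17A1 all lie below 0.

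FN1 had 11.3, 13.1 and 10.7 CPM in DLD1 controls, against 5755, 6295 and 7021 CPM in SW480 controls, a 545-fold lower level (log2 -9.09 ± 0.20, adjusted p = 1.68e-14). COL12A1 had 0.195, 0.397 and 0.352 CPM in DLD1 controls, against 340.0, 309.6 and 378 CPM in SW480 controls (log2 -10.09 ± 0.22, adjusted p = 1.81e-14). These values in DLD1 rest on 4, 6 and 7 counts. COL6A2 had 0.0488, 0.265 and 0.251 CPM in DLD1 controls and 6.38, 7.41 and 6.41 CPM in SW480 controls, and its partner COL6A1 0.635, 0.926 and 1.01 CPM and 11.6, 11.5 and 11.6 CPM. The log2 fold changes of the pair were -5.16 ± 0.35 and -3.75 ± 0.33, where COL6A2 rests on 1, 4 and 5 counts in DLD1 controls, so that the size of its fold change depends on very few counts. COL5A1, a chain that starts collagen fibrils, had 0.342, 0.463 and 0.251 CPM in DLD1 controls and 8.28, 9.50 and 8.43 CPM in SW480 controls (log2 -4.64 ± 0.31). LAMA1, a laminin alpha chain best known from embryonic basement membranes, had 2.69, 2.38 and 2.97 CPM in DLD1 controls and 60.2, 60.4 and 65.7 CPM in SW480 controls (log2 -4.52 ± 0.15). None of these groups overlapped.

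The genes of hemidesmosomes and of epithelial integrins ran the other way. ITGB4 had 122, 90.8 and 172 CPM in DLD1 controls and 1.38, 2.33 and 1.84 CPM in SW480 controls (log2 6.13 ± 0.29, adjusted p = 6.44e-11). ITGB6, an epithelial partner of ITGAV that activates latent TGF-beta, had 32.3, 35.1 and 27.0 CPM in DLD1 controls and 1.12, 0.666 and 0.771 CPM in SW480 controls (log2 5.18 ± 0.19). COL17A1 stood at 23.6, 19.0 and 24.5 CPM in DLD1 controls and at 1.25, 1.25 and 1.48 CPM in SW480 controls (log2 4.06 ± 0.18). LAMA3 had 99.9, 115 and 98.6 CPM in DLD1 controls and 6.97, 7.66 and 5.58 CPM in SW480 controls (log2 3.96 ± 0.16). Every DLD1 control lay above every SW480 control for these 4 genes. LAMB3 averaged 137 ± 35.3 CPM in DLD1 controls and 23.7 ± 1.27 CPM in SW480 controls, and ITGA6 362 ± 73.7 CPM and 181 ± 12.4 CPM. ITGB1, in contrast, averaged 239 ± 57.0 CPM in DLD1 controls and 645 ± 18.6 CPM in SW480 controls (log2 -1.43 ± 0.13).

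Levels of different genes were set side by side per kilobase of annotated exon. Each share below is of the listed members of a family only. ITGA5 made up 44.3 ± 2.82% of the summed alpha subunits in SW480 with lactate and 26.7 ± 2.67% in SW480 controls, and 11.6 ± 0.0527% in DLD1 with lactate and 7.67 ± 2.35% in DLD1 controls (CPM per kilobase, SD, n = 3 each). In SW480 controls its share was close to that of the collagen receptor subunit ITGA2, at 27.4 ± 0.347%, and the spreads overlapped. In DLD1 controls the leading alpha subunits were ITGA6 (35.1 ± 2.84%), ITGAV (24.3 ± 5.54%) and ITGA3 (21.9 ± 7.60%), of which ITGAV and ITGA3 lay within their spread of each other. ITGB1 held 75.0 ± 2.83% of the beta subunits in SW480 with lactate and 75.8 ± 0.507% in SW480 controls, and 38.9 ± 2.34% in DLD1 with lactate and 48.8 ± 9.73% in DLD1 controls. ITGB4 held 23.6 ± 2.74% of the beta subunits in DLD1 with lactate and 16.9 ± 5.81% in DLD1 controls, against 0.280 ± 0.0858% in SW480 with lactate and 0.138 ± 0.0371% in SW480 controls. In DLD1 controls 1, 2 and 3, ITGB4 (63.7% GC) held 16.4%, 11.3% and 22.9%, and ITGB1 (40% GC) 48.9%, 58.6% and 39.1%. The part of GC content in the DLD1 shares, here and for the laminin and collagen chains below, was not tested.

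LAMA5 had the highest mean share of the laminin alpha chains per kilobase in every group, with 85.2 ± 2.76% in SW480 with lactate, 85.9 ± 0.842% in SW480 controls, 67.0 ± 3.60% in DLD1 with lactate and 59.3 ± 9.80% in DLD1 controls. LAMA3 held most of the rest in DLD1 (31.9 ± 3.62% with lactate and 39.5 ± 9.73% in controls), and in DLD1 control 2 it was level with LAMA5 (49.5% and 49.3%). Among beta chains LAMB1 led in SW480 (61.1 ± 2.60% with lactate and 58.7 ± 0.798% in controls) and LAMB3 in DLD1 with lactate (43.9 ± 0.698%). In DLD1 controls LAMB3 held 39.7 ± 2.89% and LAMB1 32.2 ± 5.54%, and in DLD1 control 2 the order was turned, with 36.5% for LAMB3 and 38.2% for LAMB1. Of the 9 listed collagen chains, COL12A1 made up 53.5 ± 1.14% in SW480 with lactate and 63.4 ± 2.29% in SW480 controls. COL1A1 made up 14.8 ± 0.764% and 7.20 ± 0.485% there. COL17A1 made up 65.1 ± 0.191% of the same chains in DLD1 with lactate and 59.0 ± 1.85% in DLD1 controls. Collagens outside the list were not in these sums, among them COL3A1 (132 CPM in SW480 with lactate and 146 CPM in SW480 controls). FN1 stood far above all other members in SW480, at 923 ± 209 CPM per kilobase with lactate and 699 ± 69.8 CPM per kilobase in controls. The order of COL4A1 and COL4A2 depended on the length used, since the exons of COL4A2 together span 12971 bases and its longest transcript 6494.

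**Figure D5:**
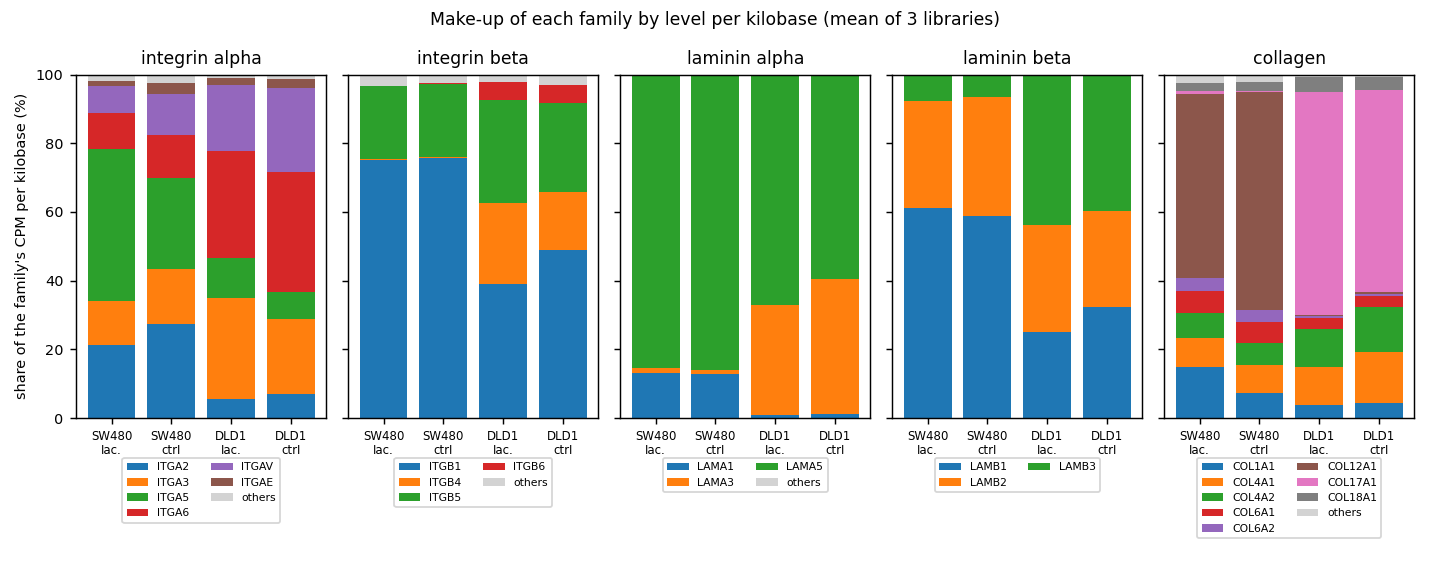
Share (percent) of each gene in the summed CPM per kilobase of the listed members of its family, mean of 3 libraries, in SW480 with lactate, SW480 controls, DLD1 with lactate and DLD1 controls, where grey holds genes under 3% in every group. The ITGA5 part of the listed alpha subunits is 44.3% in SW480 with lactate and 26.7% in SW480 controls. COL12A1 leads the listed collagens in SW480 and COL17A1 in DLD1.

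Genes that work with the members were counted in 4 further lists. The lists were also chosen with earlier results of these data known, so their counts are no independent test. Of all tested genes, 6.83% were called higher and 5.59% lower in SW480 with lactate. Of 26 adaptors and kinases of adhesion sites, 8 rose and 0 fell in SW480 with lactate (median log2 0.23), against 12.4% of all genes called. The count was 3 without SW480 control 1, 5 without SW480 lactate 1, SW480 lactate 2 or SW480 control 3, and 13 without DLD1 control 2. Over all genes the share called was 3.95% without SW480 control 1, 9.70% without SW480 lactate 1, 4.87% without SW480 lactate 2, 6.95% without SW480 control 3 and 24.7% without DLD1 control 2. The one direction did not hold under every setting. With the trend along GC content and length removed, 14 were higher and 2 lower (4915 of 17572 genes called). Adding the replicate block to that also gave 14 and 2 (27.4%). The adaptor CRKL averaged 140.5 ± 4.92 CPM with lactate and 97.2 ± 8.67 CPM in controls (log2 0.53 ± 0.09, adjusted p = 0.00218). The integrin activator FERMT1 rose by 0.60 and the scaffold PXN by 0.56 on the log2 scale, and PXN lost its call without SW480 control 1 (adjusted p = 0.0551). The same list had 1 call in DLD1, a higher one, where 0.381% of all genes were called. Without DLD1 control 3 it had 14, of which 2 were lower, and 21.8% of all genes were called. Without DLD1 control 1 or any 1 of the DLD1 lactate libraries it had 0, with at most 0.0683% of all genes called.

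Of 25 tested matrix enzymes and inhibitors (32 listed), 8 rose and 0 fell in SW480 with lactate (median log2 0.26), against 12.4% of all genes called. The count was 4 without SW480 lactate 2 or SW480 control 1 and 5 without SW480 control 3. Over all genes the share called was then 4.87%, 3.95% and 6.95%. Here too the one direction did not always hold. Without SW480 lactate 1, 7 were higher and 1 lower (9.70% of all genes called). Without DLD1 control 2 (24.7%), without DLD1 control 3 (17.6%) or with the line fitted alone (27.1%), 10 were higher and 1 lower. With the trend along GC content and length removed, 10 were higher and 2 lower (4915 of 17572 genes). Adding the replicate block to that gave 10 and 3 (27.4%). TIMP1, an inhibitor of matrix metalloproteinases, averaged 822 ± 137 CPM with lactate and 477 ± 60.0 CPM in controls (log2 0.78 ± 0.15, adjusted p = 0.00401). The collagen prolyl hydroxylase subunit P4HA2 rose by 0.68 and the urokinase receptor PLAUR by 0.88 on the log2 scale. In DLD1, edgeR called 0 of the 25 (0.381% of all genes), with 8 at an unadjusted p under 0.05, a level not counted over all genes. DESeq2 called 1 of the 25 (3.89% of all genes). Without DLD1 control 3, edgeR called 9 of them and 21.8% of all genes. Without SW480 control 1 or SW480 control 2 it called 1 (0.296% and 0.233% of all genes).

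Of 15 tested matrix receptors and hemidesmosome genes (16 listed), 3 rose and 0 fell in SW480 with lactate (median log2 0.07), against 12.4% of all genes called. These were the proteoglycan SDC4 (278 ± 35.8 CPM with lactate, 144 ± 21.7 CPM in controls, log2 0.94), the hyaluronan receptor CD44 (log2 0.69) and the hemidesmosome linker PLEC (log2 0.74). PLEC lost its call without SW480 lactate 2, SW480 control 1 or SW480 control 2 (adjusted p up to 0.0892). In DLD1, edgeR called 0 of the 15 (0.381% of all genes), with 7 at an unadjusted p under 0.05, a level not counted over all genes. DESeq2 called 0 of the 15 (3.89% of all genes). Without DLD1 control 3, 4 were higher and 2 lower in DLD1, with 21.8% of all genes called. The one direction of the SW480 calls did not hold under every setting. There 3 were higher and 2 lower without DLD1 control 2 (24.7% of all genes called) and with the line fitted alone (27.1%). With the trend along GC content and length removed, 3 were higher and 4 lower (4915 of 17572 genes), and with the replicate block added 4 and 4 (27.4%). With DESeq2 (16.1% of all genes called) or no filter (7.11%), 3 were higher and 1 lower.

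Of 24 further matrix genes, 8 rose and 2 fell in SW480 with lactate (median log2 0.22), against 12.4% of all genes called. The transmembrane collagen COL13A1 averaged 5.84 ± 1.02 CPM with lactate and 1.45 ± 0.344 CPM in controls (log2 1.99 ± 0.30, adjusted p = 9.73e-04). ECM1 rose by 1.19 and the anchoring fibril collagen COL7A1 by 0.97 on the log2 scale. The genes that fell, named after their values were seen, were EFEMP1 (371 CPM with lactate, 529 CPM in controls, log2 -0.51, adjusted p = 0.00672) and FBN2 (87.4 and 120.3 CPM, log2 -0.46, adjusted p = 0.0417). In DLD1, edgeR called 0 of the 24 (0.381% of all genes), with 8 at an unadjusted p under 0.05, a level not counted over all genes. DESeq2 called 3 of the 24 (3.89% of all genes). Without DLD1 control 3 the DLD1 count was 5, with 21.8% of all genes called. The SW480 count of 10 was 4 without SW480 lactate 2, 5 without SW480 control 1, and 6 without SW480 lactate 3 or SW480 control 3. The shares of all genes called were then 4.87%, 3.95%, 7.01% and 6.95%.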

How the data were processed

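The deposited table holds raw read counts per gene symbol, made by the authors, 1 column for each of 12 libraries. The submitters' processing notes name HISAT2 and GRCh38. Not given in the sources used here: the aligner's version, the counter, its annotation and its use of strand. Each column was matched to 1 library through its title. Totals ran from 12302311 to 22662063 counts.

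Counts were tested in R 4.3.3 with edgeR 4.0.16. After filterByExpr by group, 17572 genes were kept, scaled by TMM and fitted by robust quasi-likelihood with 1 mean per group over all libraries. Tests were two-sided, with Benjamini-Hochberg adjustment over all tested genes. The SE was taken as the size of the log2 fold change divided by the root of F. CPM were scaled by the TMM library size. Scripts were tested on simulated data. Alternatives were median-of-ratios scaling, 2 other filters, DESeq2 1.42.0, each line alone, a replicate block and omission of each library. Another was removal of a GC content and length trend (splines with 5 degrees of freedom, GC known for 87.7% of genes). Genome positions, lengths and GC content come from GENCODE annotation on GRCh38, promoter sequences from RefSeq on GRCh38.p14.

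The members and lists were chosen with earlier results of these data known. Values per library are given for members called with lactate or in the difference of effects, and for up to 10 members called between controls with the largest fold change, if the higher group averaged 5 CPM or more. Of each other list, up to 4 called genes with the smallest p are named per lactate comparison, and some genes of these lists are counted but not reported here. Chains that pair are shown whatever their p. Endothelial markers summed to at most 1.26 CPM in SW480. In DLD1 they ran from 4.24 to 4.37 CPM with lactate and from 1.85 to 2.56 CPM in controls. Leukocyte markers in DLD1 summed to 8.25 to 12.0 CPM with lactate and 3.37 to 6.89 CPM in controls.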

Additional observations from a re-analysis of the deposited data

Results flagged for a closer look

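Lactate effects differed between the lines for ITGA10 and SDC4 by edgeR's test of the difference, DLD1 minus SW480. ITGA10, the collagen-binding integrin subunit described above, had a difference of -1.31 on the log2 scale (adjusted p = 0.0443). SDC4, a heparan sulfate proteoglycan that acts with integrins at adhesion sites, had one of -1.01 (adjusted p = 0.0168), with 499, 505 and 461 CPM in DLD1 with lactate and 513, 521 and 500.0 CPM in the DLD1 controls, and 278 ± 35.8 CPM in SW480 with lactate and 144 ± 21.7 CPM in SW480 controls (SD, n = 3 each). Leaving out 1 of the 12 libraries at a time, the difference stayed called in 8 cases for SDC4 (adjusted p up to 0.0683). SDC4 lost it without SW480 lactate 2, SW480 control 1, SW480 control 3 or DLD1 lactate 3.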

How the results depend on the processing

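Members called in SW480 numbered 10, against 16 with DESeq2, 18 with the line fitted alone, 18 after removing the trend along GC content and length, and 19 with that and the replicate block. Those added by DESeq2 were ITGA6, ITGB4, LAMA1, LAMB3, COL4A2 and FN1. Over all genes the 2183 calls were 2822 with DESeq2, 4759 with the line alone, 4915 with the trend removed and 4811 with trend and block. In DLD1, 2 members were called, against 10 without a filter, 9 with DESeq2, 0 with the line alone, 7 with the replicate block, 10 with the trend removed and 9 with trend and block. Over all genes the 67 calls were 855, 683, 2, 184, 506 and 462 under the same settings. For the difference of the effects, 1 member was called, against 4 without a filter, 3 with DESeq2, 5 with the trend removed and 6 with trend and block. Over all genes the 128 calls were 837 without a filter, 712 with DESeq2, 274 with the block, 1414 with the trend removed and 1294 with trend and block. The cause of these shifts was not tested. Between the controls no setting moved the counts of 36 members and 12448 genes by over 1.5 times.

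Leaving out 1 library at a time, members called ranged from 7 to 18 in SW480, 0 to 15 in DLD1, 0 to 8 for the difference and 36 to 37 between controls. Over all genes the ranges were 694 to 4345, 3 to 3838, 8 to 1517 and 11566 to 12961. The sources used here do not say whether replicate numbers pair the samples. Deviations from the group mean correlated at 0.102, 0 and 0.173 between same-numbered lactate and control libraries in SW480. In DLD1 they correlated at -0.071, 0.062 and 0.116. Deviations of single libraries along GC content enter these values, so they cannot decide the pairing. Under the replicate block, 14 members and 2345 genes in all were called in SW480. No called member changed direction under any setting run. ITGB3 in DLD1 lay near the count floor, and the size of change that could be detected in scarce members was not measured.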
